A study of Mus musculus with 4 samples.

Results

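Cytosolic ribosomal protein genes encode the proteins of the 40S and 60S ribosomal subunits. They were taken by gene symbol alone (Rps and Rpl with a number and at most a letter or a copy number, Rplp0 to Rplp2 and Rpsa, without symbols of pseudogenes or of S6 kinases), which gave 77 genes of the 21862 symbols listed once. Of these, 31 belong to the 40S and 46 to the 60S subunit. All 77 passed the minimum of an FPKM above 2 in all 4 libraries, as did 10489 genes overall. FPKM, the unit of the deposited values, scales the reads of a gene to transcript length and to the mapped reads of the library. Levels of different genes can thus be compared, but only approximately for very short transcripts and for genes with near-identical copies.

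RNA came from N31 NPCs, 1 mouse neural progenitor line made by differentiating iPSCs that carry doxycycline-inducible reprogramming factors and a blasticidin resistance cassette in Oct4. Control NPCs and NPCs with shSrf, a short hairpin RNA against the transcription factor Srf, were each cultured in medium lacking EGF and bFGF, on a collagen-coated matrix of 0.5 kPa (soft) or 12 kPa (stiff). For this experiment the study names 1 hairpin, shSrf#1, and describes the control as N31 cells without naming a control hairpin. Its infected cells were selected with puromycin. Effects of infection, selection or the hairpin itself cannot be told apart from those of Srf loss. Each of the 4 conditions had 1 library, so differences could not be checked against replicates and carry no p-value. Below, "higher" and "lower" mean a ratio past 1.1-fold (0.138 on the log2 scale), and 4 values in a row follow the order control at 0.5 kPa, control at 12 kPa, Srf knockdown at 0.5 kPa and Srf knockdown at 12 kPa. Srf itself had an FPKM of 34.4, 35.6, 16.2 and 17.4, so its level was lower in both Srf-knockdown libraries. Of 14 NPC markers 7 were above the minimum, and Sox1, Hes5 and Olig2 were listed at 0 in all libraries, while all 8 mesenchymal markers were above it. The summed FPKM of the mesenchymal markers was 3308 and 3083 in control and 2690.4 and 2774 in Srf-knockdown NPCs. Of the 8, Acta2, Tagln and Col1a2 were lower in Srf-knockdown NPCs at both stiffnesses, Acta2 with 321, 322, 6.74 and 8.96 and Tagln with 298, 242, 16.9 and 32.6, both known targets of Srf. At 0.5 kPa 3 were higher and at 12 kPa 4, and the median log2 ratio of the list was 0.045 and 0.10. Among the NPC markers Sox2, which is also an inducible transgene, had 4.29, 5.49, 19.1 and 20.4 and Nes had 51.6, 36.1, 16.4 and 15.5. The part that these markers have in the results was not tested. The estimated depth was 29200000, 24100000, 45200000 and 62200000 reads.

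A ribosome is assembled in the nucleolus from ribosomal RNA and close to equal numbers of each ribosomal protein, and free ribosomal proteins are degraded. Vertebrate ribosomal protein mRNAs begin with a C followed by a run of pyrimidines (5' terminal oligopyrimidine, TOP), which places their translation under control of mTOR through Larp1. Srf binds the CArG box, CC followed by 6 A or T and GG, and drives genes of the cytoskeleton and immediate early genes.

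Start-site windows of RefSeq (GRCm38.p6, the mm10 assembly), which run from 250 bases before to 50 bases after an annotated start, matched 57 of the 77 genes with 67 windows. In 9 of these windows (13.4%) the pyrimidine run CTTTCC lay on the gene strand within 10 bases before and 20 bases after the start, against 1.28% of all 32851 windows. The following 5 are shown because they carry this run and span the responses described later, from genes with higher FPKM in Srf-knockdown NPCs (Rps27, Rpl28 and Rpl35) through Rps10, which was higher at 12 kPa only, to Rpl15, which was not higher at either stiffness. The capitals mark CTTTCC, and each line runs 5' to 3' on the gene strand.
Rps27, chr3:90213629-90213658, minus strand: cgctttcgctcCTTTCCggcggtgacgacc
Rpl28, chr7:4792955-4792984, plus strand: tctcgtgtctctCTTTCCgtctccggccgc
Rpl35, chr2:39005112-39005141, minus strand: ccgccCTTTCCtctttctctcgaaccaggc
Rps10, chr17:27635225-27635254, minus strand: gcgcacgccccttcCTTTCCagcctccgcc
Rpl15, chr14:18270967-18270996, minus strand: agaaagccttcttcCTTTCCtctggcggca
Over the whole window and on either strand, CTTTCC occurred in 49.3% of the windows of ribosomal protein genes and 26.6% of all windows. CCGGAAG, the core that ETS factors recognise, occurred in 37.3% against 8.86%. The searches for CTTTCC and CCGGAAG gave no overlapping matches in these windows. A CArG box was found in 1 window, that of Rpl10a, which is 1.49% of the windows against 1.63% of all windows. The 29 genes with CTTTCC had median Srf knockdown ratios (log2, over control) of 0.41 at 0.5 kPa and 0.44 at 12 kPa, and the 28 genes without it 0.32 at both stiffnesses. The 24 genes with CCGGAAG had medians of 0.39 and 0.44, and the 33 without it of 0.39 and 0.33. These matches describe letters in a window and do not show binding.

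The ribosomal protein genes were among the most abundant mRNAs of all 4 libraries. Their FPKM spanned 316 to 4742 in control NPCs at 0.5 kPa, 311 to 4935 at 12 kPa, 297 to 5512 in Srf-knockdown NPCs at 0.5 kPa and 305 to 6067 at 12 kPa. Together they made up 12.5%, 12.6%, 15.1% and 15.7% of the summed FPKM of all symbols listed once. The median gene had an FPKM of 922, 934, 1175 and 1183, and 35, 35, 48 and 49 of the 77 genes exceeded an FPKM of 1000. Of the 100 genes with the highest FPKM in a library, 47, 47, 54 and 56 were ribosomal protein genes. Both Srf-knockdown libraries thus stood above both control libraries in the share, the median and these counts, and the 2 stiffnesses lay close together within each population.

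**Figure D1:**
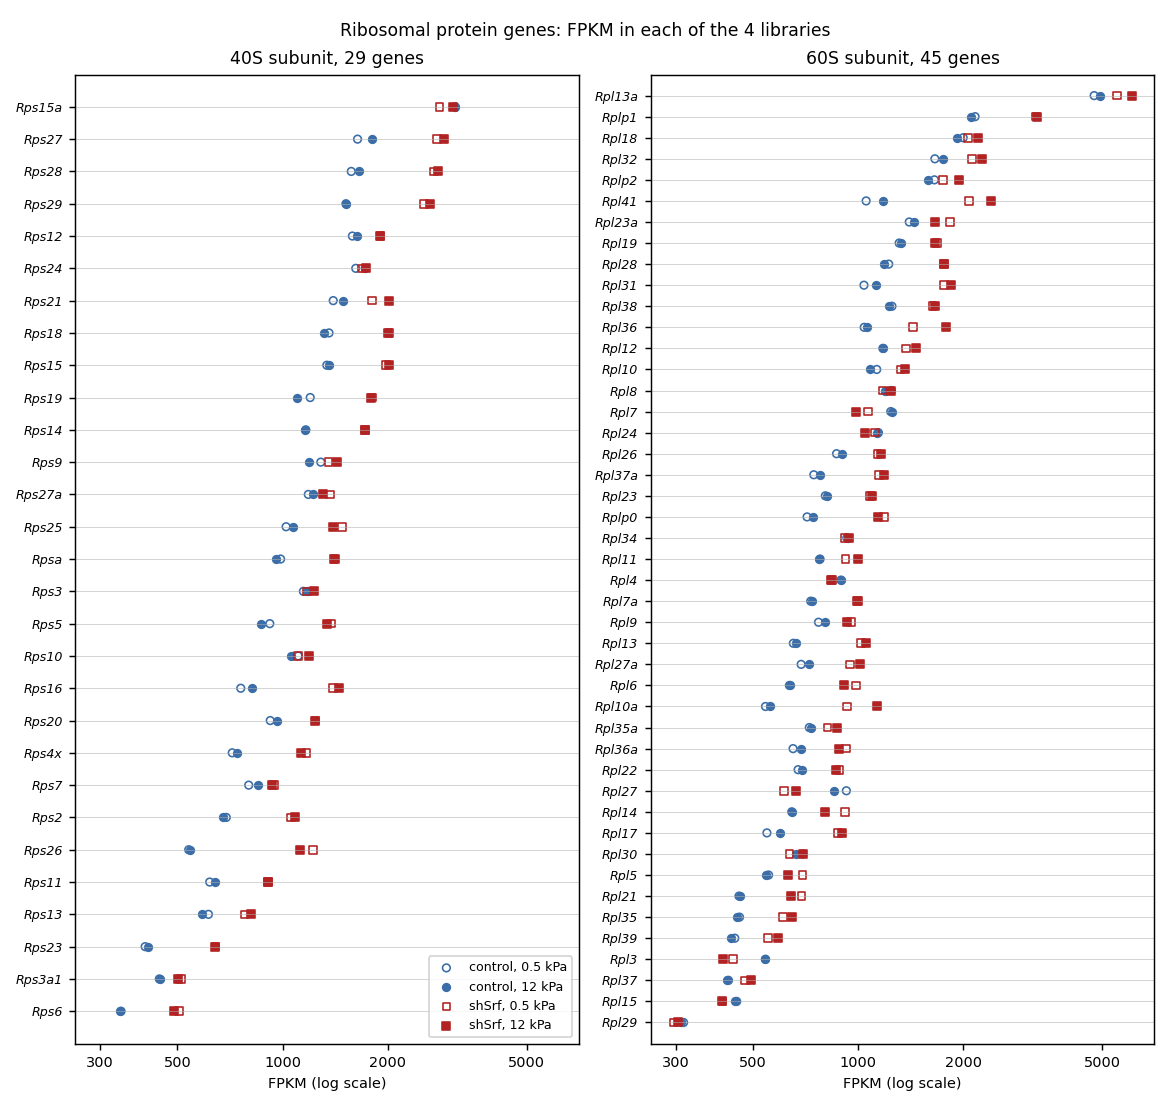
FPKM (log axis) of 29 genes of the 40S subunit and 45 genes of the 60S subunit in each of the 4 libraries, ordered by their mean; circles are control and squares Srf-knockdown NPCs, open at 0.5 kPa and filled at 12 kPa. Open and filled symbols of 1 population mostly coincide, and in 61 of the 74 genes drawn both squares lie to the right of both circles.

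Although the proteins enter the ribosome in close to equal numbers, the FPKM of their genes covered a wide range. The order of genes is approximate, because FPKM is uncertain for very short transcripts, such as those of Rps27 and Rps28, and for genes with near-identical copies. Rpl13a, a 60S protein that is also released from the ribosome to silence inflammatory mRNAs, had the highest mean, with an FPKM of 4742, 4935, 5512 and 6067. Rps15a of the 40S subunit followed, with 3124, 3123, 2814 and 3083. Next came Rplp1 of the 60S stalk, with 2162, 2106, 3233 and 3249. In Rpl13a and Rplp1 both Srf-knockdown values were above both control values, and in Rps15a both were below. The small 40S proteins Rps27 (FPKM 1640.3, 1799.5, 2766 and 2904) and Rps28 (1573, 1653, 2716 and 2783) completed the 5 highest, and both were separated in the same direction as Rplp1. At the low end Rpl29 had an FPKM of 316, 311, 297 and 305. Rps6, the 40S protein phosphorylated by S6 kinase downstream of mTOR, had 345, 343, 504 and 489. Rpl15 had 449, 445, 408 and 407, and Rpl37 (425, 421, 473 and 495) and Rps3a1 (444, 444, 512 and 502) made up the 5 lowest. Rpl29 and Rpl15 were lower in both Srf-knockdown libraries than in both control libraries, and Rps6, Rpl37 and Rps3a1 were above. Across the 77 genes the log2 FPKM of the control libraries correlated with a Pearson r of 0.996 and that of the Srf-knockdown libraries with 0.993, whereas control and Srf knockdown gave 0.903 at 0.5 kPa and 0.915 at 12 kPa. Genes are not independent replicates, and these values describe likeness only.

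In control NPCs the ribosomal protein genes differed little between the soft and the stiff matrix. The log2 ratio of 12 to 0.5 kPa had a median of 0.010 and an SD of 0.060 over the 77 genes, against a median of 0.0031 and an SD of 0.199 over all 10489 genes. Of the 77 genes 2 were higher, among them that of Rpl41, one of the shortest proteins known, with a log2 ratio of 0.16. No ribosomal protein gene was lower, and 75 stayed within 1.1-fold. Over all genes 17.9% were higher and 16.9% lower. Of the 249 other genes at or above the mean FPKM of the lowest ribosomal protein gene, 6.02% were higher and 7.23% lower. Rpl41 had an FPKM of 1054 on the soft and 1177 on the stiff matrix. The lowest ratios within the threshold belonged to Rps19 (-0.13), Rpl27 (-0.12) and Rps9 (-0.11).

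In Srf-knockdown NPCs 6 of the 77 genes were higher on the stiff matrix and 2 were lower, and the median log2 ratio was 0.029. All genes gave 17.6% higher and 13% lower, and the 249 other abundant genes 7.63% and 14.1%. Rpl36 had the highest ratio, with an FPKM of 1434 on the soft and 1787 on the stiff matrix (log2 ratio 0.32). Rpl10a went from 931 to 1130.1 (0.28). In control NPCs the same genes had log2 ratios of 0.027 and 0.039. The difference between populations was thus 0.29 for Rpl36 and 0.24 for Rpl10a and was not tested. The transcript of Rpl36 has a GC content of 60.9% and that of Rpl10a 55.6%, against a median of 51.7% for ribosomal protein genes. Across all genes, Spearman's rho between GC content and the stiffness ratio was -0.13 for control and 0.34 for Srf-knockdown cells. Among ribosomal protein genes it was -0.37 and 0.24. The part of GC content in the differences of Rpl36 and Rpl10a was not tested. The other genes that were higher in Srf-knockdown NPCs were Rpl41 (0.21), Rps21 (0.16), Rplp2 (0.15) and Rpl13a (0.139), and Rpl14 (-0.19) was among the lower. Rpl41 was the only ribosomal protein gene higher on the stiff matrix in both populations. Rpl27 had log2 ratios of opposite sign, -0.12 in control and 0.11 in Srf-knockdown NPCs, both within 1.1-fold. Across the 77 genes the log2 stiffness ratios of the 2 populations, which share no library, gave r = 0.066 (Pearson) and rho = -0.0088 (Spearman).

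Most ribosomal protein genes had higher levels in Srf-knockdown than in control NPCs at both stiffnesses. FPKM is a share of the reads of a library, so more of these mRNAs in each cell and less of other mRNAs, or a changed mix of cells, cannot be told apart. At 0.5 kPa 60 of the 77 genes were higher in Srf-knockdown than in control NPCs, 4 were lower and 13 stayed within 1.1-fold, with a median log2 ratio of 0.39 (1.31-fold). At 12 kPa 62 were higher, 3 were lower and 12 stayed within it, with a median of 0.37 (1.29-fold). Centring the ratios on genes of similar transcript length lowered the medians to 0.13 and 0.16 and the genes that were higher to 38 and 39 of 76. These centred counts stand without the share of all genes under the same centring, and the uncentred shares that follow are no background for them. Without centring, 37.4% of all genes were higher and 35.7% lower at 0.5 kPa, 37.6% and 35.9% at 12 kPa, and the median log2 ratio was 0.011 and 0.010. The ratios of individual genes ran from -0.59 to 1.18 at 0.5 kPa and from -0.40 to 1.09 at 12 kPa. The standard error from counting alone was computed as at most 0.028 in any of the 4 comparisons, for the 76 genes with a length. It is too low for short transcripts, whose reads were overestimated because the full transcript length was used. It also leaves out the variation between cultures or libraries.

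**Figure D2:**
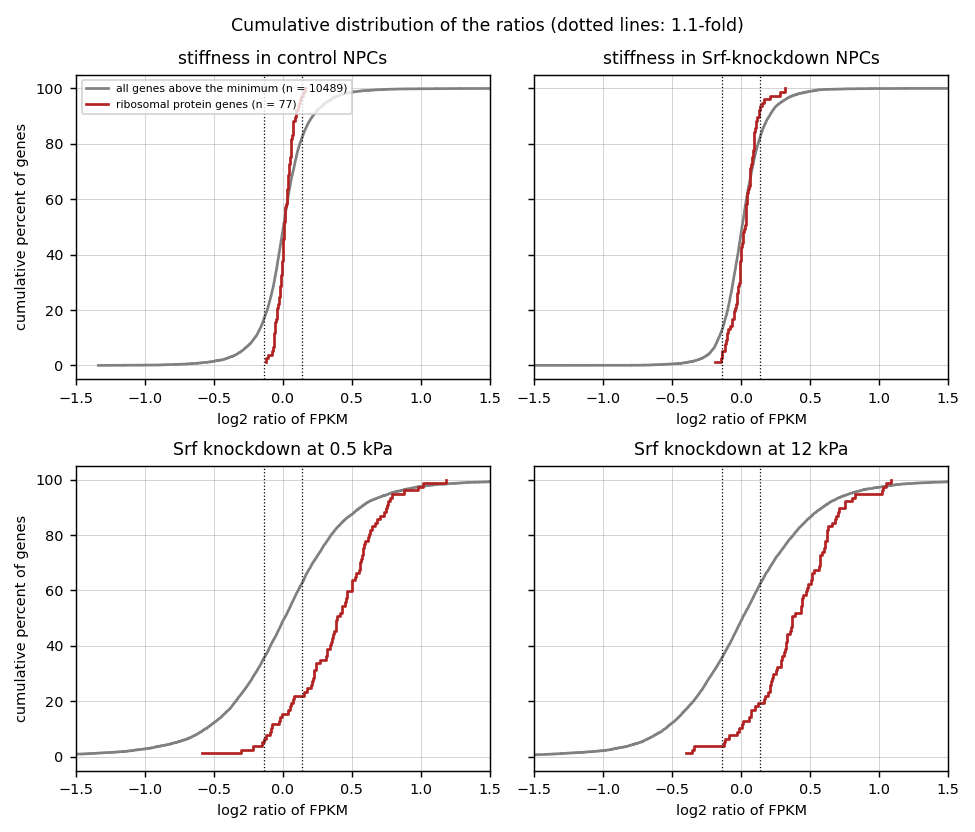
Cumulative percent of genes (vertical axis) against the log2 ratio of FPKM (horizontal axis) for the 77 ribosomal protein genes (red) and all 10489 genes above the minimum (grey) in the 4 comparisons, with dotted lines at 1.1-fold and the axis ending at 1.5 on either side. The red curve rises inside the dotted lines for stiffness (75 and 69 of 77 genes) and lies to the right of the grey curve for Srf knockdown, with medians of 0.39 and 0.37 against 0.011 and 0.010.

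Most genes had the same direction at both stiffnesses. Higher at both were 58 of the 77 genes, against 30.3% of all genes, and lower at both were 3, against 28.8%. Past 1.5-fold at both stiffnesses were 17 genes, against 6.63% of all genes. In 64 genes both Srf-knockdown libraries lay above both control libraries, against 39.8% of all genes, and in 8 they lay below both, against 37.6%. The 2 ratios of each gene, which share no library, gave r = 0.945 (Pearson) and rho = 0.942 (Spearman) over the 77 genes, and 0.881 and 0.856 over all genes. Both ratios compare the same Srf-knockdown and control populations, so they are not independent checks of Srf loss.

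**Figure D3:**
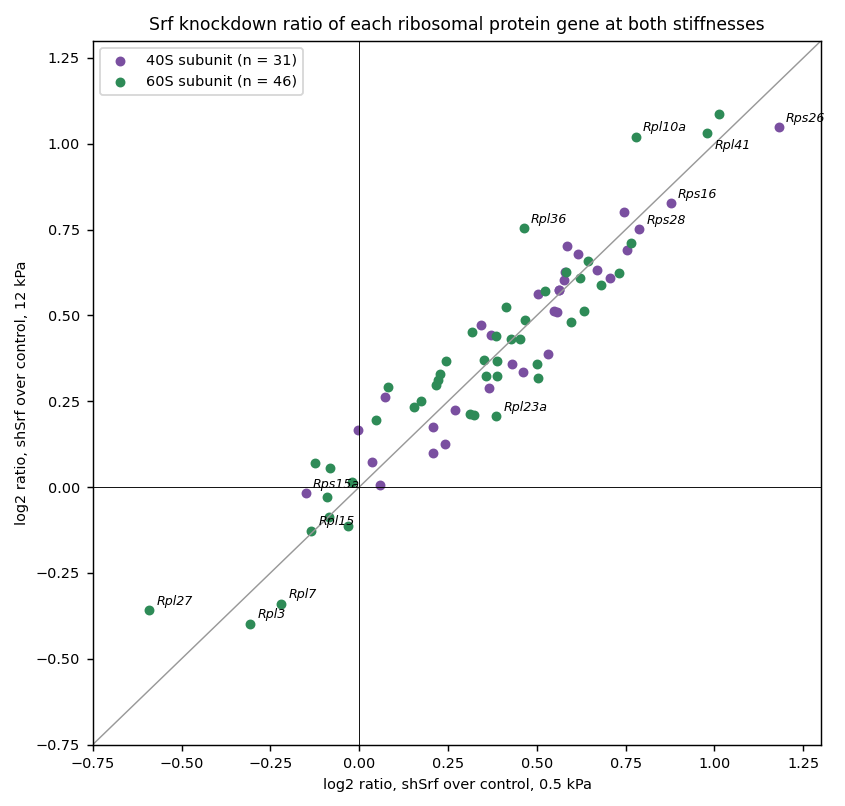
Log2 ratio of FPKM in Srf-knockdown over control NPCs at 0.5 kPa (horizontal axis) and 12 kPa (vertical axis) for the 31 genes of the 40S subunit (purple) and the 46 genes of the 60S subunit (green), 1 point a gene; the grey line marks equal ratios. Most points lie near the line in the upper right (r = 0.945), Rps26 and Rpl41 at the far end, and Rpl27, Rpl3 and Rpl7 lie in the lower left.

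For the 40S subunit the median log2 ratio was 0.53 on the soft and 0.51 on the stiff matrix. Of its 31 genes 26 were higher at each stiffness, and Rps15a at 0.5 kPa alone was lower. Rps26, which contacts the mRNA at the exit channel next to the start codon and is mutated in Diamond-Blackfan anaemia (chr10:128624529-128626506 in RefSeq), had an FPKM of 539 and 544 for control, 1220.5 and 1125 for knockdown. Its log2 ratios of 1.18 at 0.5 kPa and 1.05 at 12 kPa were the highest of the subunit. Rps16, whose tail reaches toward the tRNA of the P site, had an FPKM of 759 and 820.2 for control, 1394 and 1454 for knockdown (log2 ratios 0.88 and 0.83). Both genes were separated widely, with the Srf-knockdown values above the control values. Rps28 (0.79 and 0.75), Rps27 (0.75 and 0.69), Rps29 (0.75 and 0.80), Rps4x (0.71 and 0.61), Rps23 of the decoding centre (0.67 and 0.63), Rps2 of the mRNA entry channel (0.62 and 0.68) and Rps19 (0.59 and 0.70) also passed 1.5-fold at both stiffnesses.

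Other 40S proteins with known roles had smaller ratios. Rps6 had log2 ratios of 0.55 at 0.5 kPa and 0.51 at 12 kPa. Rpsa, also known as a laminin receptor precursor, had an FPKM of 987 and 957 for control, 1399.5 and 1412 for knockdown (0.50 and 0.56), and Rps14, whose human gene is lost in the 5q- syndrome, had 1166 and 1157 for control, 1721 and 1722 for knockdown (0.56 and 0.57). Both were higher at each stiffness by less than 1.5-fold. Rps27a, which is made as a fusion with ubiquitin, had 1185, 1221, 1368 and 1307, higher at 0.5 kPa (0.21) and within 1.1-fold at 12 kPa (0.099). Rps3 of the mRNA entry channel had 1147, 1171, 1177 and 1232, within 1.1-fold at both stiffnesses (0.037 and 0.073). Rps15a, the second most abundant gene, was lower at 0.5 kPa (-0.15) and within 1.1-fold at 12 kPa (-0.019). Rps3 and Rps15a are among the 5 genes of the subunit that were not higher at 0.5 kPa.

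For the 60S subunit the median log2 ratio was 0.37 on the soft and 0.34 on the stiff matrix, with 34 and 36 of 46 genes higher and 3 lower at each stiffness. Rpl41 (chr10:128548110-128549168) had an FPKM of 1054 and 1177 for control, 2079 and 2406 for knockdown, log2 ratios of 0.98 at 0.5 kPa and 1.03 at 12 kPa. Rpl10a, part of the mobile L1 stalk, had 543 and 557 for control, 931 and 1130.1 for knockdown (0.78 and 1.02). In both genes the lower Srf-knockdown value was well above the higher control value. Past 1.5-fold at both stiffnesses were also Rpl31 (0.76 and 0.71), Rplp0 (0.73 and 0.62), Rpl17 (0.68 and 0.59), Rpl13 (0.64 and 0.66) and Rpl37a (0.62 and 0.61). Rpl36 passed 1.5-fold at 12 kPa (0.75) but not at 0.5 kPa (0.46).

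Within the 60S subunit the functional groups can be set side by side. The P stalk, which recruits the elongation factors, consists of Rplp0 and dimers of Rplp1 and Rplp2. Rplp0 had an FPKM of 714 and 740.1 for control, 1184 and 1141 for knockdown. Rplp1 had log2 ratios of 0.58 and 0.63. Rplp2 had an FPKM of 1653, 1588, 1750.2 and 1944 and was within 1.1-fold at 0.5 kPa (0.082) and higher at 12 kPa (0.29). The stalk genes thus differed among themselves, with Rplp2 lowest. Rpl5 and Rpl11 form a particle with 5S ribosomal RNA that also binds the p53 regulator Mdm2, and both were higher at both stiffnesses. Rpl5 had 554 and 545 for control, 692 and 630.3 for knockdown (0.32 and 0.21), and Rpl11 had 778 and 773 for control, 920.1 and 997 for knockdown (0.24 and 0.37). All 7 genes around the exit tunnel of the nascent chain (Rpl17, Rpl19, Rpl23a, Rpl26, Rpl31, Rpl35 and Rpl39) were higher at both stiffnesses, with medians of 0.39 and 0.45. Rpl23a had the lowest ratio of them at 12 kPa (0.21) and Rpl31 the highest (0.71). Rpl10, which joins the 60S subunit late and completes its active site, had 1130.0, 1082, 1323 and 1360.3 (0.23 and 0.33). Rpl13a (0.22 and 0.30), Rpl22 (0.39 and 0.32), Rpl39 (0.32 and 0.45) and Rpl38 (0.39 and 0.44), which is needed for translation of Hox mRNAs in the mouse, were also higher at both stiffnesses.

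Rpl27, Rpl3 and Rpl7, all of the 60S subunit, were lower at both stiffnesses. Rpl27 (chr11:101442245-101445596) had an FPKM of 925 and 850.2 for control, 614 and 663 for knockdown, log2 ratios of -0.59 at 0.5 kPa and -0.36 at 12 kPa. Rpl3 (chr15:80077781-80083406), which reaches the peptidyl transferase centre, had 542 and 539 for control, 439 and 409 for knockdown (-0.31 and -0.40). Rpl7 (chr1:16101295-16104433) had 1239.6 and 1246 for control, 1065 and 985 for knockdown (-0.22 and -0.34). In all 3 genes both Srf-knockdown values were below both control values. The same was true of Rpl15 (-0.135 and -0.127), Rpl24 (-0.031 and -0.11), Rpl29 (-0.092 and -0.03), Rpl4 (-0.084 and -0.088, named after its values were seen) and Rps15a, with smaller ratios. Of these 8 genes 7 belong to the 60S subunit.

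Genes of anciently conserved and of other ribosomal proteins had similar medians. The 33 proteins with counterparts in bacteria had median log2 ratios of 0.41 and 0.43, with 26 and 27 genes higher and 3 and 2 lower. The 44 others had 0.39 and 0.36, with 34 and 35 higher and 1 lower at each stiffness. Ribosomal proteins whose gene symbols fall outside the selection rule gave values of both kinds. Fau, a fusion of a ubiquitin-like protein with a 40S protein, had an FPKM of 489 and 492 for control, 848 and 960.0 for knockdown (0.80 and 0.97). Rack1, a scaffold bound to the 40S subunit, had 2066, 2013, 1902 and 1922 (-0.12 and -0.066) and stayed within 1.1-fold. Fau was higher and Rack1 was not. Of 7 paralogs, 4 were above the minimum. Rpl36al was higher at both stiffnesses (0.64 and 0.72), whereas Rpl7l1 (0.136 and 0.023), Rps27l (0.10 and -0.0013) and Rpl22l1 (0.077 and -0.15) had no ratio past 1.1-fold at 0.5 kPa, and Rpl22l1 was lower at 12 kPa. Rpl10l and Rpl39l were listed at 0 in all libraries.

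Other genes of the translation machinery did not share the distribution of the ribosomal protein genes. The shares of all genes to set beside their counts are 37.4% higher and 35.7% lower at 0.5 kPa, and 37.6% and 35.9% at 12 kPa. Of 20 other mRNAs of the TOP class, Rack1 included, 5 were higher and 6 lower at 0.5 kPa, 6 and 7 at 12 kPa, with medians of -0.0068 and -0.063. Eef1a1, the elongation factor that delivers aminoacyl-tRNA, had an FPKM of 4173, 4321, 6282 and 5803 (0.59 and 0.43), and Pabpc1, the poly(A)-binding protein, had 503, 479, 708 and 676 (0.49 and 0.50), and both were higher. Tpt1, a TOP mRNA of similar abundance to the ribosomal protein genes, had 1827, 1824, 1644 and 1559 (-0.15 and -0.23) and was lower. Of 29 translation initiation factors, 4 were higher and 10 lower at 0.5 kPa and 6 and 12 at 12 kPa (medians -0.041 and -0.062). Of 53 ribosome biogenesis factors, 9 and 12 were higher and 29 lower at each stiffness (medians -0.20 and -0.18). Gnl3, a nucleolar GTPase, had 96.0, 91.6, 60.6 and 56.1 (-0.66 and -0.71), and Fbl, the methyltransferase of the box C/D particles, had 152, 112, 104 and 98.9 (-0.54 and -0.17). The biogenesis factors thus had medians of the opposite sign to the proteins they assemble. The lists in this paragraph were not matched to the ribosomal protein genes for transcript length. Across all genes the Srf knockdown ratio fell with length (Spearman's rho -0.22 at 0.5 kPa and -0.21 at 12 kPa). The part of length in these contrasts was not tested. The 11 subunits and factors of RNA polymerase I had medians of -0.023 and 0.011, with 4 and 3 higher and 5 and 4 lower. The 78 genes of the mitochondrial ribosome had medians of 0.13 and 0.077, with 37 and 31 higher and 15 and 18 lower.

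**Figure D4:**
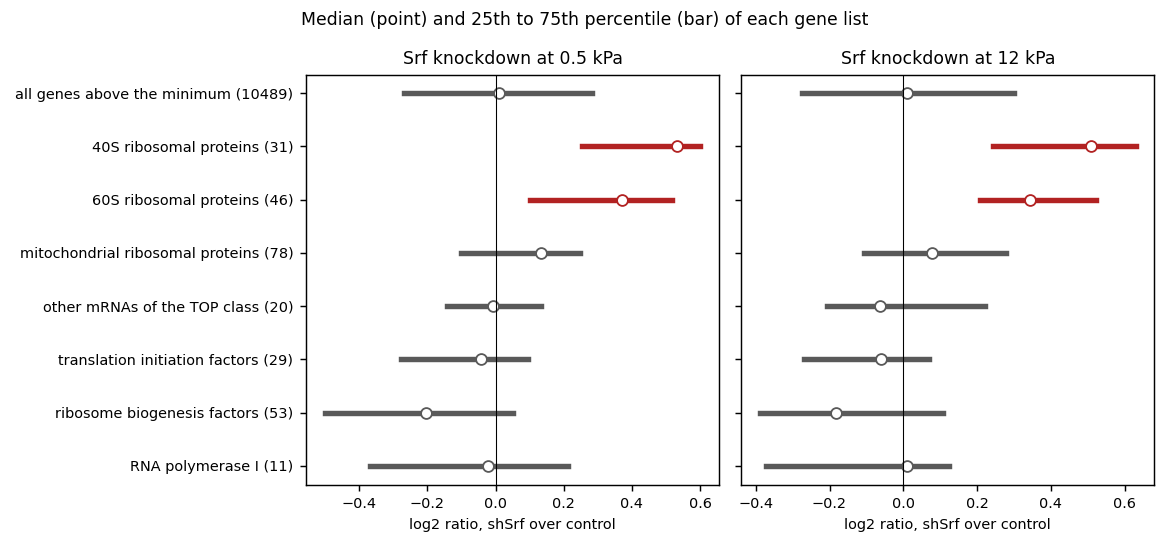
Median (point) and 25th to 75th percentile (bar) of the log2 ratio of Srf-knockdown over control NPCs at 0.5 kPa (left) and 12 kPa (right) for all 10489 genes and 7 gene lists, with the number of genes in brackets. The bars of the 40S and 60S genes (medians 0.53 and 0.37 at 0.5 kPa) lie to the right of 0, and the median of the biogenesis factors (-0.20 and -0.18) lies to the left.

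Among 13 regulators of ribosomal protein genes and of TOP mRNAs above the minimum, 5 and 6 were higher (38.5% and 46.2%) and 5 were lower (38.5%) at each stiffness. Of all genes 37.4% and 37.6% were higher and 35.7% and 35.9% lower, so the list as a whole was near that share at 0.5 kPa. Myc, a transcription factor that activates ribosome biogenesis, had an FPKM of 42.3 and 33.7 for control, 71.6 and 65.8 for knockdown (0.76 and 0.97). The inducible transgenes of N31 include Myc, and its FPKM may hold reads from them. Mtor had 13.2 and 10.7 for control, 7.42 and 8.15 for knockdown (-0.83 and -0.40), and Larp1, which binds the TOP sequence, had 41.4, 39.99, 43.3 and 42.7 (0.066 and 0.096). Of these examples Myc was higher, Mtor lower and Larp1 within 1.1-fold.

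Ribosomal protein mRNAs are short, and short transcripts as a class had higher ratios in Srf-knockdown NPCs. The median transcript length was 744 nucleotides for the 76 ribosomal protein genes with a value and 2722 for all genes. Across all genes, Spearman's rho between length and the Srf knockdown ratio was -0.22 at 0.5 kPa and -0.21 at 12 kPa. The 695 other genes with transcripts no longer than the 75th percentile of the ribosomal protein genes (961 nucleotides) had median log2 ratios of 0.22 and 0.21, and 59.6% and 57.7% of them were higher. Among ribosomal protein genes 77.9% and 80.5% were higher. After the centring on transcript length named above, 16 and 12 of the 76 ribosomal protein genes were lower, again without a share of all genes beside them. Rpl41 has no length value and is not in these numbers. Among ribosomal protein genes themselves, rho between length and ratio was -0.12 and -0.18. The part that length plays in the result was not tested beyond this centring.

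**Figure D5:**
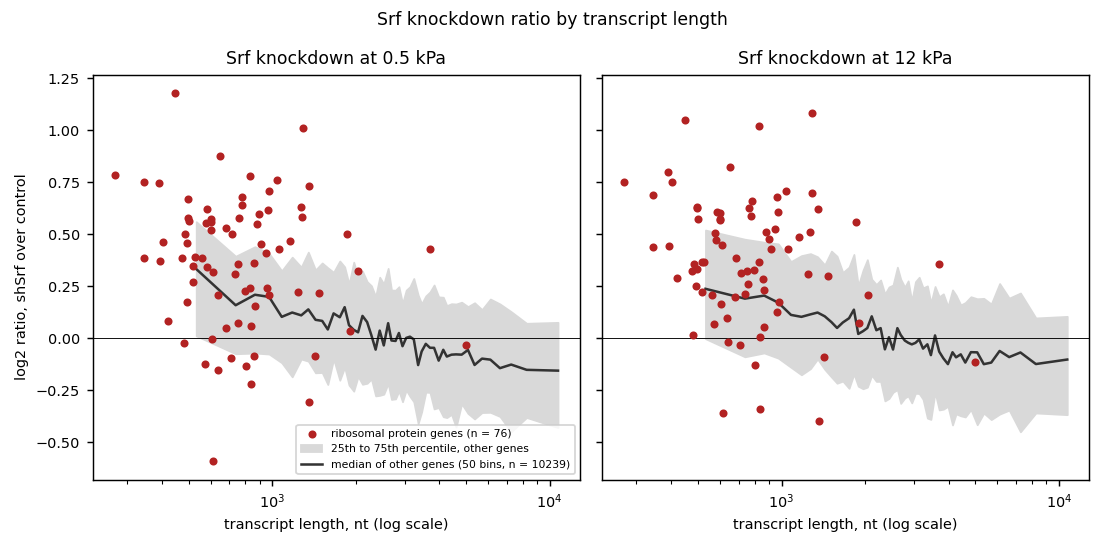
Log2 ratio of Srf-knockdown over control NPCs (vertical axis) against transcript length in nucleotides (log axis) at 0.5 kPa (left) and 12 kPa (right); red points are the 76 ribosomal protein genes with a length, the dark line is the median and the grey band the 25th to 75th percentile of 10239 other genes in 50 bins of length. The line falls with length, and at short lengths red points lie above, within and below the band.

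GC content and abundance also moved with the ratios. Spearman's rho between GC content of the transcript and the Srf knockdown ratio was 0.27 and 0.42 across all genes, and 0.14 and 0.28 among ribosomal protein genes. The median GC content was 51.7% for ribosomal protein genes and 50.7% for all genes. Centring on genes of similar GC content gave medians of 0.36 and 0.35. The part of GC content in the result was not tested beyond this centring. The 249 other abundant genes had medians of 0.12 and 0.087, with 47.8% and 44.6% higher. Many ribosomal protein genes have processed pseudogenes that can share their reads. The 62 genes with a RefSeq pseudogene named after them (their symbol followed by -ps) had median ratios of 0.40 and 0.38. The 15 without such a symbol had 0.37 at both stiffnesses. Pseudogenes under other symbols were not counted, so this split cannot show whether copies affect the ratios. The authors kept reads with a mapping quality of at least 20, which TopHat2 does not give to reads that map equally well to several places. Levels of genes with many copies, such as Rpl31 and Rps19, are therefore uncertain where a copy is near-identical, and the effect of this filter was not tested.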

How the data were processed

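RNA was sequenced from 4 samples, 1 library for each condition, so samples with the same replicate number are not replicates and no test was made. The authors prepared stranded mRNA libraries, trimmed the single-end reads with cutadapt 1.9.1, mapped them to mm10 with TopHat2 2.1.0, Bowtie2 2.2.8 and GENCODE M14, kept reads with a mapping quality of at least 20, and deposited FPKM from Cufflinks 2.2.1. How Cufflinks was told to treat strand is not given in the sources used here.

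From the deposited FPKM, symbols listed more than once (63 symbols, 135 of 21997 rows) were left out, genes were required to exceed an FPKM of 2 in each of the 4 libraries, and log2 ratios were taken without a pseudocount. Ratios past 1.1-fold were called higher or lower, after the study's methods. Depth was estimated from the FPKM that 1 read gives in genes with an FPKM under 0.1, and the counting error from the estimated reads of each gene. For depth 200 nucleotides were taken off the transcript length. For the reads of each gene they were not, which overstates the reads of short transcripts. Lengths and GC content are those of GENCODE M1 transcripts matched by symbol, and coordinates, start-site windows and pseudogene symbols those of RefSeq on GRCm38.p6. Of several transcripts the one with the longest coding sequence was taken. This gave Rpl24 4999 nucleotides, against a median of 744 for ribosomal protein genes. Estimated reads and length-centred ratios of such genes are uncertain. The calculations of depth and ratios and the centring were tested on simulated data, but the estimate of reads for each gene was not.

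The genes and all lists were chosen with earlier results of these data known. Genes named are the 5 with the highest and lowest mean, the 5 largest rises and falls in each ratio, 16 with known roles, and those past 1.2-fold in a shared direction in both knockdown or both stiffness ratios. Genes other than the 77 were picked as examples after their values were seen. The values of some genes are not reported here by name. Alternatives were a minimum of 1 or 5, no minimum with a pseudocount of 1, only genes of the 77 with no listed pseudogene of their symbol, centring on the median, scaling to the 75th percentile, centring in 50 bins of GC content or transcript length, and thresholds of 1.2 and 1.5-fold. Centring on other genes in bins of transcript length, coding length or mean FPKM was added after seeing the data. Tables were handled with pandas 2.3.3 in Python 3.11.15, statistics computed with scipy 1.17.1 and numpy 2.4.6, and plots drawn with matplotlib 3.10.9.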

Additional observations from a re-analysis of the deposited data

How the results depend on the processing

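No paired analysis was possible because no condition had more than 1 library. The median Srf knockdown ratios of the ribosomal protein genes stayed above 0 under all alternatives tried and were lowest when centred within bins of transcript length. For Srf knockdown at 0.5 kPa the median log2 ratio (0.39) was 0.13 when centred within bins of transcript length (38 higher, 16 lower), 0.14 on other genes in such bins (38 higher, 15 lower), 0.24 on other genes in bins of coding length (9 lower), 0.29 on other genes in bins of mean FPKM (9 lower) and 0.36 in bins of GC content. For Srf knockdown at 12 kPa the median (0.37) was 0.16 within bins of transcript length (39 higher, 12 lower), 0.19 on other genes in such bins (11 lower), 0.24 on other genes in bins of coding length (8 lower) and 0.32 on other genes in bins of mean FPKM (6 lower), and in bins of GC content 6 genes were lower. A threshold of 1.5-fold left 19 higher and 1 lower at 0.5 kPa and 21 higher and 0 lower at 12 kPa, and 1.2-fold left 2 lower at 0.5 kPa. The counts in this section stand without the share of all genes under the same setting.

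For stiffness in control NPCs, 0 genes were higher at 1.2-fold or 1.5-fold and when centred on transcript length (all genes or other genes, 1 lower each) or on other genes in bins of coding length (2 lower). For stiffness in Srf-knockdown NPCs the median (0.029) was -0.00197 in bins of GC content (5 lower), 0.00628 in bins of transcript length (3 higher, 6 lower), 0.0084 on other genes in such bins (3 higher, 4 lower) and 0.055 on other genes in bins of mean FPKM (11 higher, 1 lower). Centring on the median or scaling to the 75th percentile gave 4 lower, a threshold of 1.2-fold 2 higher and 0 lower, and 1.5-fold 0 in either direction.

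Among named genes with a ratio past 1.1-fold, 13 recalculated ratios had the opposite sign (sign changes of smaller ratios were not counted). At 0.5 kPa these were, in bins of transcript length, Rpl32 (-0.0026), Rpl37 (-0.049), Rpl39 (-0.035), Rps13 (-0.00901) and Rps27a (-0.011), on other genes in such bins Rpl37 (-0.047) and Rpl39 (-0.022), and in bins of coding length Rpl37 (-0.066). At 12 kPa they were Rpl13a in bins of GC content (-0.0015), and in bins of transcript length Rpl23a (-0.12, and -0.032 on other genes), Rplp2 (-0.031) and Rps3a1 (-0.00212). The causes were not tested. The lowest estimate of reads among the 76 genes with a length was 4907, and such estimates are too high for short transcripts. Whether depth limits the ratios of the shortest genes was not tested, and the absence of replicates limits all of them.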
